A study of Mus musculus with 24 samples.

Results

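Gene expression in the inner ear at middle age was examined by comparing mice aged 11 months (n = 4) with mice aged 3 months (n = 4), by bulk RNA sequencing. These 8 libraries were taken by the age in their labels, out of 24 in the whole study, and every gene of the count table was considered. The table lists 18440 genes, of which 15525 had enough counts to be tested. Both groups were male C57BL6/J mice of wild-type genotype that received no treatment and were kept in a specific-pathogen-free facility. This inbred strain is known for progressive hearing loss that begins in early adulthood. After removal of the bone, all of the tissue inside it was used for RNA, so each library mixes the sensory, neural, secretory, connective, blood and immune cells of the ear. The source name of the samples is inner ear and their titles name the cochlea. The other 16 samples include 4 inner ears at 20 months, whose levels are set beside the others without comparison of the 2 differences. These 4 libraries also entered the fit and share in its estimate of spread. The remaining 12 are inner ear organoid libraries that were not used.

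The inner ear turns sound and head movement into nerve signals through hair cells, whose bundles of stereocilia are joined by tip links. Supporting cells hold them in place, the stria vascularis and the fibrocytes of the lateral wall maintain the potassium-rich endolymph, and myelinated neurons carry the signal to the brain. The ear also holds resident macrophages, which clear debris and present antigen on MHC class II molecules, and chaperones in all of these cells fold newly made and damaged proteins.

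The markers of the tissue were present in all 8 libraries. The hair cell list summed to 691 to 931 CPM (depth-scaled counts, on library sizes adjusted by TMM) at 3 months and to 749 to 917 CPM at 11 months. The libraries held 32438525 to 34844505 counts at 3 months and 33146538 to 38451292 at 11 months, and Ptgds, a prostaglandin synthase gene, took the largest share of each, at 0.847% to 1.44%. On the first principal component of the 8 libraries, which held 41.6% of the variance, the 4 libraries of 3 months lay at -27.8 to -12.6 and the 4 of 11 months at 13.1 to 26.5. Some of the summed markers of tissues that a dissection can carry along also differed between the ages, and others overlapped. Summed over the list, skeletal muscle markers overlapped, at 190 to 380 CPM at 3 months and 190 to 238 CPM at 11 months. Osteoblast markers stood at 4535 to 5072 and 2890 to 3856 CPM, chondrocyte markers at 924 to 1143 and 622 to 761 CPM, and oligodendrocyte and astrocyte markers at 269 to 805 and 1081 to 1401 CPM. In replicates 2, 3, 1 and 4 of 11 months the osteoblast sums were 2890, 2899, 3541 and 3856 CPM. The stria vascularis sums had the same order, at 1829, 1932, 2885 and 3842 CPM. At 3 months the orders differed. Replicates 1 to 4 stood at 4535, 5020, 4761 and 5072 CPM for osteoblast and 3654, 4346, 4389 and 3939 CPM for stria markers. The chondrocyte sums of 11 months had another order, with replicate 1 highest. Such lists hold genes that the ear's own tissue may express, so their sums do not measure an amount of carried tissue. Erythroid markers stood at 795 to 1666 CPM at 3 months, at 3961 CPM in replicate 2 of 11 months and at 511 to 649 CPM in the other 3 libraries of that age. The erythroid list holds Tfrc, itself at 382 to 525 CPM at 3 months and at 210 to 261 CPM at 11 months. The erythroid sums include the fall of that gene and do not measure blood content. In bulk tissue, a change in the number of cells of a type and a change in RNA per cell cannot be told apart.

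**Figure D1:**
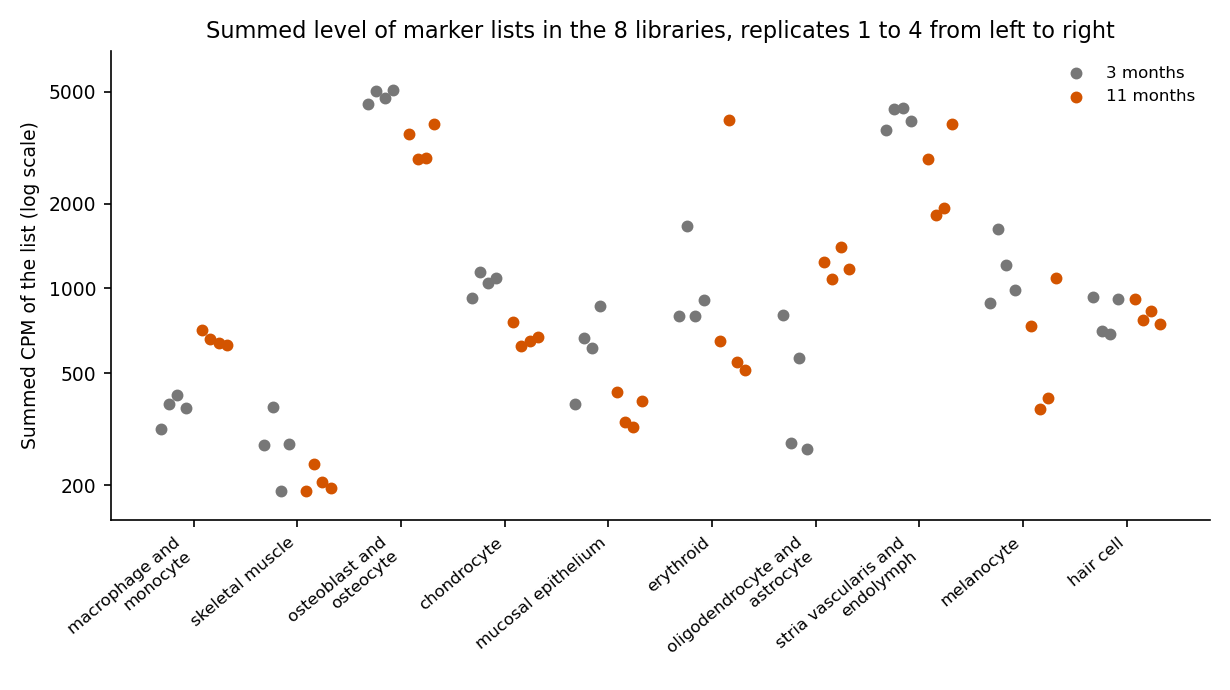
Summed CPM of the genes of 10 marker lists (log scale) in each of the 4 libraries of 3 months (grey) and the 4 of 11 months (orange), 1 point per library. The macrophage sums of the 2 ages do not overlap (317 to 417 against 631 to 714 CPM), osteoblast and chondrocyte sums are lower at 11 months in every library, and the hair cell sums overlap.

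Between 3 and 11 months, 152 genes rose and 90 fell by edgeR's quasi-likelihood test at an adjusted p under 0.05, which is 0.979% and 0.58% of the genes tested. A change of at least 2-fold was fitted for 77 of the genes that rose and for 18 of those that fell, and under 1.5-fold for 33 and 44. The genes that rose were of lower level, with a median of 15.1 CPM at 11 months, than those that fell, with a median of 53.5 CPM at 3 months. In 240 of the 242 called genes, all 4 libraries of 11 months lay on 1 side of all 4 of 3 months, a pattern seen for 7.22% of all genes tested upwards and 5.75% downwards. The calls come from a test of these same libraries, which favours separated genes, so the 240 are no separate support. The median log2 fold change over all genes tested was -0.01. These calls were sensitive to single libraries: with each of the 8 left out in turn, 29 to 88 genes were higher and 9 to 49 lower, and each library changed both counts by over 1.5 times. The direction of all 242 genes was the same in all 14 alternative fits chosen at the outset. These genes were picked for their difference in the same libraries, so a change of direction was unlikely and this adds no support. Called whichever library was left out were 33 of the 242 (25 higher and 8 lower). Of all genes tested, 8.77% were higher and 9.32% lower at an unadjusted p under 0.05 by edgeR. Counts in the gene lists below are to be read beside these shares and those of the called genes.

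**Figure D2:**
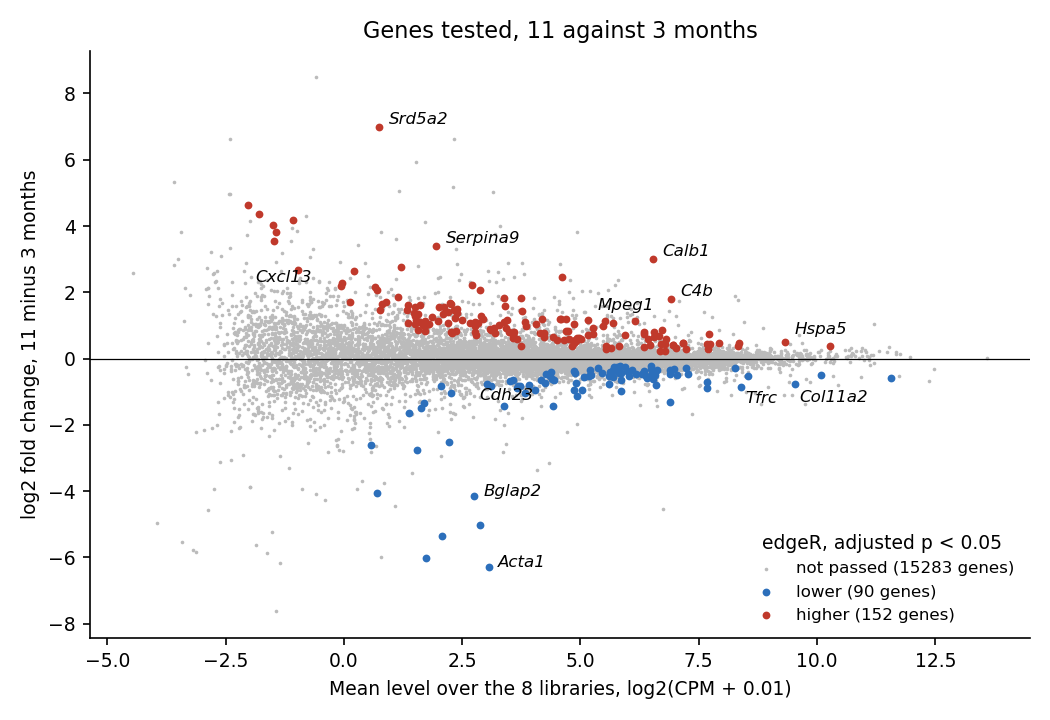
Fitted log2 fold change of 11 minus 3 months (vertical axis) against the mean level over the 8 libraries, log2(CPM + 0.01) (horizontal axis), for the 15525 genes tested, with the 152 called higher in red and the 90 called lower in blue. The largest called increase is that of Srd5a2 and the largest called decrease that of Acta1, and abundant genes such as Hspa5 and Hsp90aa1 were called at changes under 1 on the log2 scale.

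Macrophage genes formed the largest group that rose. Of 25 genes of the macrophage and monocyte list, 12 were called higher and none lower, against 0.979% of all genes tested. In 21 of the 25 the libraries of the 2 ages did not overlap, with the 11-month libraries higher (7.22% of all genes), and the median log2 fold change of the list was 0.84. Mpeg1, which encodes the pore-forming protein perforin-2 of macrophages, stood at 20.5, 20.0, 22.9 and 24.2 CPM at 3 months and at 53.5, 44.9, 51.1 and 48.5 CPM at 11 months. Every 11-month library was above every 3-month library, the log2 fold change was 1.18 (SE 0.14, adjusted p = 0.00383 by edgeR), and it was 1.14 to 1.24 with any 1 library left out. Ctss, the lysosomal protease cathepsin S that trims the MHC class II chaperone, stood at 32.1, 31.6, 40.8 and 29.3 CPM and then at 81.7, 62.6, 63.6 and 72.5 CPM (log2 fold change 1.07, SE 0.18, adjusted p = 0.0221 by edgeR). Itgam, the integrin subunit CD11b of myeloid cells, stood at 4.86, 3.2, 5.32 and 3.84 CPM and then at 11.2, 12.1, 9.52 and 9.17 CPM (log2 fold change 1.28, SE 0.21, adjusted p = 0.0165 by edgeR). An exon of Itgam overlaps the annotated gene Gm49368, and reads there cannot be assigned to 1 of them. The groups did not overlap for Ctss or Itgam. Oligodendrocyte and astrocyte sums were also higher in every 11-month library, as given above. The part of carried-over brain tissue in the levels of these genes, and of those in the next paragraph, was not tested.

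Receptors and secreted proteins of phagocytes rose with them. Trem2, a lipid-sensing receptor, went from 3.45 ± 0.194 to 7.78 ± 0.919 CPM (SD, n = 4), and its signalling partner Tyrobp from 6.76 ± 1.11 to 11.5 ± 1.42 CPM. The scavenger receptor Msr1 went from 1.33 ± 0.313 to 3.7 ± 0.971 CPM, the Fc receptors Fcgr1 and Fcgr3 from 1.66 ± 0.472 to 4.23 ± 1.11 CPM and from 8.63 ± 1.43 to 14.8 ± 1.5 CPM, and Ly86, a partner of a Toll-like receptor, from 3.69 ± 0.725 to 6.63 ± 0.582 CPM. The complement component C1q is made largely by macrophages, and its chain genes C1qb and C1qc went from 26.6 ± 2.45 to 50.6 ± 6.25 CPM and from 18.9 ± 3.48 to 39 ± 2.29 CPM. Lysozyme 2 (Lyz2) went from 74.5 ± 17.9 to 136 ± 21.7 CPM. The edgeR adjusted p of these 9 genes lay between 0.0251 (Msr1) and 0.047 (Ly86), close to the threshold. With replicates 1 to 4 of 3 months left out in turn, 2, 4, 6 and 1 genes of the list were called, and 2, 3, 2 and 3 with replicates 1 to 4 of 11 months left out. Mpeg1 was called in all 8 of these fits, Itgam in all but that without replicate 4 of 3 months (adjusted p = 0.052 by edgeR), and the other 10 genes lost their call in 5 to 8 of them (adjusted p up to 0.115). Irf8, a transcription factor of the myeloid lineage that was singled out after its values were seen, stood at 3.92, 3.1, 4.72 and 4.67 CPM and then at 8.77, 8.11, 8.12 and 9.31 CPM (log2 fold change 1.06, SE 0.17, adjusted p = 0.0146 by edgeR) and was called in all 8.

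At 20 months the same macrophage genes stood at higher mean levels still, but replicate 2 of that age did not follow. Its macrophage sum, 691 CPM, lay within the 11-month range of 631 to 714 CPM. The other libraries of 20 months summed to 1028 to 1162 CPM. Means at 20 months were 74.7 ± 16.5 CPM for Mpeg1, 102 ± 26.2 CPM for Ctss and 10.5 ± 3.56 CPM for Trem2. In replicate 2 these genes stood at 51.1, 65.7 and 5.48 CPM, within or below their 11-month ranges. Of these 3, the difference between 20 and 11 months passed for Mpeg1 (log2 fold change 0.59, adjusted p = 0.0165 by edgeR) and not for Ctss (0.55, adjusted p = 0.0558) or Trem2 (0.43, adjusted p = 0.19). That comparison shares the 11-month libraries with the one described here.

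**Figure D3:**
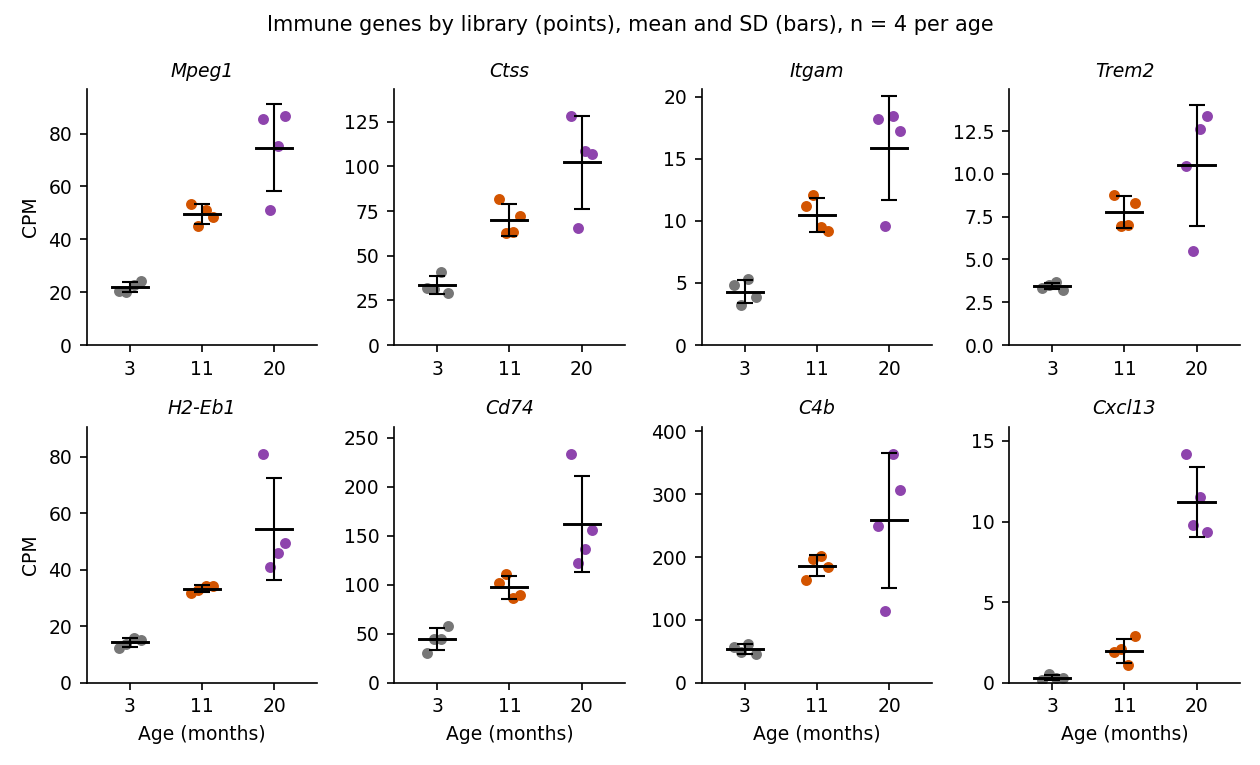
CPM of 8 immune genes (vertical axes, from 0) at 3, 11 and 20 months (horizontal axes), with 1 point per library and bars for the mean and SD of n = 4. For every gene shown the 4 points of 11 months lie above the 4 of 3 months, and Cxcl13 has its highest points at 20 months (9.38 to 14.2 CPM).

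Genes of the classical MHC class II molecules and their invariant chain rose, and the other 5 tested members of the list did not pass. These molecules show peptides to helper T cells. Of 9 genes of the list that were tested, 4 were called higher and none lower, against 0.979% and 0.58% of all genes tested. H2-Eb1, a beta chain, stood at 12.4, 13.9, 16.1 and 15.3 CPM at 3 months and at 31.8, 33, 34.3 and 34.2 CPM at 11 months (log2 fold change 1.21, SE 0.18, adjusted p = 0.0116 by edgeR). H2-Ab1, a second beta chain, stood at 12.4, 12.8, 14.2 and 18.9 CPM and then at 35.6, 34.6, 30.6 and 32.7 CPM (log2 fold change 1.20, SE 0.19, adjusted p = 0.0136 by edgeR). The alpha chain H2-Aa stood at 11, 15.3, 18.3 and 18.9 CPM and then at 33.9, 40.5, 34.6 and 34.8 CPM (log2 fold change 1.18, SE 0.22, adjusted p = 0.0283 by edgeR). The invariant chain Cd74, which escorts these chains, went from 44.6 ± 11 to 97.4 ± 11.5 CPM (log2 fold change 1.13, SE 0.22, adjusted p = 0.0338 by edgeR). All 4 genes had every 11-month library above every 3-month library, and their fitted changes lay within 1.13 to 1.21. On the FPKM scale, which accounts for length, Cd74 stood at 68.5 ± 8.37 at 11 months, above H2-Aa at 31.7 ± 2.78, H2-Ab1 at 27.8 ± 2 and H2-Eb1 at 19.8 ± 0.616. Ciita, the co-activator that switches the class II genes on, was named after its values were seen. It stood at 2.44 ± 0.557 and 2.4 ± 1.23 CPM, with libraries that overlapped (log2 fold change -0.03, SE 0.37, adjusted p = 0.979 by edgeR). H2-DMa, part of the peptide exchange factor, had an adjusted p of 0.666. With replicates 1 to 4 of 3 months left out, 2, 2, 3 and 3 of the list were called, and 2 without each library of 11 months. H2-Eb1 and H2-Ab1 were called in every such fit, H2-Aa only without replicate 3 of 3 months and Cd74 only without replicate 4 of 3 months (adjusted p up to 0.0809 and 0.089 in the others). These genes have related sequences, so reads shared between them could be split by the counting. The part of carried-over brain tissue in their levels was not tested.

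Promoters of class II genes are known to carry a conserved Y box, to which the factor NF-Y binds. The 250 bases before the start are shown for 2 of the 4 called genes, the only ones of these for which a promoter was found. The sequences are from RefSeq (build GRCm38.p6), 5′ to 3′ on the strand of the gene, and capitals mark the Y box CTGATTGG. H2-Eb1 is at chr17:34305617-34305866 (plus strand), with the match 62 to 55 bases before the start, and H2-Aa at chr17:34287824-34288073 (minus strand), with the match 51 to 44 bases before the start.
H2-Eb1: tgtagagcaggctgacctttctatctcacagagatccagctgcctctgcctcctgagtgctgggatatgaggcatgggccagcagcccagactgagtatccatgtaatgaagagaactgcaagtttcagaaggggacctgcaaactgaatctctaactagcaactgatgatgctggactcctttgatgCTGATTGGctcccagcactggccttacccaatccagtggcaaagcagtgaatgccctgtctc
H2-Aa: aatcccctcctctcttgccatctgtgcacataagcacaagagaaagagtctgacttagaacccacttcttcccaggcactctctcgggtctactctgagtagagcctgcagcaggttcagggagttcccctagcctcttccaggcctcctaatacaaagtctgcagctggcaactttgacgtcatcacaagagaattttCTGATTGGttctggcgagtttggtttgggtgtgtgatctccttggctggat
Searched on both strands, CTGATTGG was found in 1258 of 32851 RefSeq promoters of this length (3.83%). A promoter was found for 7 of the 10 genes of the class II list (2 of the 4 called), and 3 of them held the motif (H2-Aa, H2-Eb1 and H2-Oa). A match describes the letters and does not show that a factor binds there.

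Class I genes, which show peptides of the cell's own proteins to cytotoxic T cells, did not pass. None of 18 genes of the class I and peptide loading list was called by edgeR, with 7 higher at an unadjusted p under 0.05 (8.77% of all genes). The DESeq2 Wald test called 3 higher, and the median log2 fold change was 0.28. H2-K1 stood at 91.6, 114, 133 and 129 CPM and then at 173, 159, 163 and 172 CPM (log2 fold change 0.52, SE 0.12, adjusted p = 0.0553 by edgeR). H2-D1 stood at 131, 160.2, 173 and 170.1 CPM and then at 220.0, 217, 202 and 217 CPM (log2 fold change 0.43, SE 0.11, adjusted p = 0.0594 by edgeR). The groups did not overlap for either gene, and the values missed the threshold. At 20 months H2-K1 stood at 285 ± 48.1 CPM and H2-D1 at 336 ± 50.7 CPM, above 11 months (adjusted p = 0.00669 and 0.00698 by edgeR).

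Among soluble mediators, 3 of 21 chemokine genes and 1 of 15 genes of the complement list were called higher and none lower. The complement list leaves out the C1q chains, which are counted in the macrophage list and of which C1qb and C1qc were called higher. Cxcl13, which draws B cells into lymphoid tissue, stood at 0.177, 0.527, 0.272 and 0.287 CPM at 3 months and at 1.89, 2.12, 1.08 and 2.9 CPM at 11 months (log2 fold change 2.65, SE 0.35, adjusted p = 0.00485 by edgeR). The lowest 11-month library was above the highest 3-month library. At 20 months the gene stood at 11.2 ± 2.18 CPM, above 11 months as well (log2 fold change 2.49, adjusted p = 0.0032 by edgeR). Cxcl16, a membrane-bound chemokine and scavenger receptor, stood at 8.66, 12.1, 11.9 and 11.2 CPM and then at 21.7, 22.7, 24.1 and 21.1 CPM (log2 fold change 1.03, SE 0.13, adjusted p = 0.00383 by edgeR). An exon of Cxcl16 overlaps Zmynd15, which was also called higher, with the same log2 fold change of 1.03 (2.19 ± 0.18 to 4.47 ± 0.577 CPM, adjusted p = 0.0396 by edgeR). Reads of the shared part could count for either gene, and how far one call rests on reads of the other was not tested. Cxcl12, made by stromal cells to retain blood-forming and immune cells, went from 73.3 ± 8.4 to 116 ± 2.42 CPM (log2 fold change 0.66, SE 0.15, adjusted p = 0.0483 by edgeR). Cxcl13 and Cxcl16 were called whichever library was left out, and Cxcl12 lost its call without any 1 of the 8 (adjusted p up to 0.117).

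C4b, the complement factor that is cut early in the classical pathway, stood at 57.4, 49.1, 62.3 and 46.4 CPM and then at 164, 196, 202 and 184 CPM (log2 fold change 1.79, SE 0.28, adjusted p = 0.0219 by edgeR). It did not pass in 5 of the 8 fits lacking a library, those lacking replicates 1, 2 and 4 of 3 months and replicates 2 and 3 of 11 months (adjusted p up to 0.0737), and its log2 fold change was 1.75 to 1.89 in the 8 fits. C3, the central component, went from 9.38 ± 2.49 to 34.1 ± 3.69 CPM with no overlap and missed the threshold (log2 fold change 1.86, SE 0.43, adjusted p = 0.0611 by edgeR). Both genes are known in astrocytes as well as in immune cells. The astrocyte gene Gfap, named after its values were seen, went from 148 ± 80.5 to 499 ± 50.5 CPM in the same libraries (log2 fold change 1.76, SE 0.62, adjusted p = 0.173 by edgeR), and the part of carried-over brain tissue in these levels was not tested.

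Of 29 interferon-stimulated genes of the list, Oas2 was called higher by edgeR and none lower (0.979% and 0.58% of all genes). At an unadjusted p under 0.05, 12 were higher (8.77% of all genes). The DESeq2 Wald test called 7 higher, the edgeR fit of the 8 libraries alone called 6, and the median log2 fold change was 0.74. Oas2, an antiviral enzyme that senses double-stranded RNA, stood at 1, 1.37, 1.97 and 1.61 CPM and then at 2.17, 5.18, 5.51 and 5.44 CPM (log2 fold change 1.62, SE 0.32, adjusted p = 0.0314 by edgeR). Replicate 1 of 11 months was close to the 3-month range, and the call was lost without any library except replicate 3 of 3 months and replicate 1 of 11 months (adjusted p up to 0.101). Trim30a, an antiviral ubiquitin ligase, went from 5.22 ± 1.1 to 9.49 ± 2.24 CPM (adjusted p = 0.0525 by edgeR). Ifi213, a DNA-sensing relative outside the list, stood at 0.914, 0.403, 0.423 and 0.516 CPM and then at 2.12, 3.06, 2.32 and 2.73 CPM (log2 fold change 2.17, SE 0.30, adjusted p = 0.00626 by edgeR), and was called whichever library was left out. Other genes known to respond to interferon were called higher outside the list and were picked after their values were seen. Among them, Zc3hav1, an antiviral protein that binds viral RNA, went from 28.8 ± 6.4 to 48 ± 5.58 CPM (adjusted p = 0.0228 by edgeR). Herc6, a ligase gene of the interferon response, went from 5.96 ± 0.772 to 11 ± 1.81 CPM (adjusted p = 0.0229 by edgeR), and Slfn8, of the Schlafen family, from 2.04 ± 0.333 to 5.96 ± 1.61 CPM (adjusted p = 0.0221). Samd9l, Parp10, Sp100 and the guanylate-binding protein genes Gbp8 and Gbp10 had log2 fold changes of 0.60, 0.60, 0.64, 1.66 and 1.51 (adjusted p = 0.0334 to 0.0453 by edgeR). These 8 calls were each lost in 4 to 8 of the fits with a library left out (adjusted p up to 0.131).

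T cell genes had few counts in every library. Of 13 genes of the T and NK cell list that were tested, 2 were called higher and none lower. The co-receptor Cd8a stood at 0, 0, 0.151 and 0.0287 CPM at 3 months and at 0.613, 0.757, 0.844 and 0.502 CPM at 11 months (log2 fold change 3.82, SE 0.76, adjusted p = 0.0325 by edgeR). Ms4a4b, a membrane protein of T cells, stood at 0.147, 0.031, 0.0302 and 0 CPM and then at 0.64, 0.878, 0.528 and 0.53 CPM (log2 fold change 3.53, SE 0.69, adjusted p = 0.0288 by edgeR). The groups did not overlap, but all of these levels were under 1 CPM. The granule gene Nkg7 had 3 counts over the 4 libraries of 3 months and 65 over those of 11 months, a depth-scaled ratio of 20.4 with an exact 95% counting interval of 6.67 to 101, and missed the threshold (adjusted p = 0.0594 by edgeR). Each of the 2 calls was lost in 7 of the 8 fits with a library left out (adjusted p up to 0.096): Cd8a passed only without replicate 3 of 3 months and Ms4a4b only without replicate 1 of 3 months. Ly9, a surface receptor of lymphocytes outside the list, went from 0.943 ± 0.18 to 3.45 ± 0.746 CPM (log2 fold change 1.87, SE 0.32, adjusted p = 0.0186 by edgeR), which did not pass in the fits lacking 3-month replicate 4 or 11-month replicate 3 (adjusted p up to 0.075). No B and plasma cell gene (9 tested) and no granulocyte gene (11 tested) was called by edgeR. At an unadjusted p under 0.05 there was 1 higher B and plasma cell gene and 0 granulocyte genes, and the DESeq2 Wald test called 1 and 0.

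**Figure D4:**
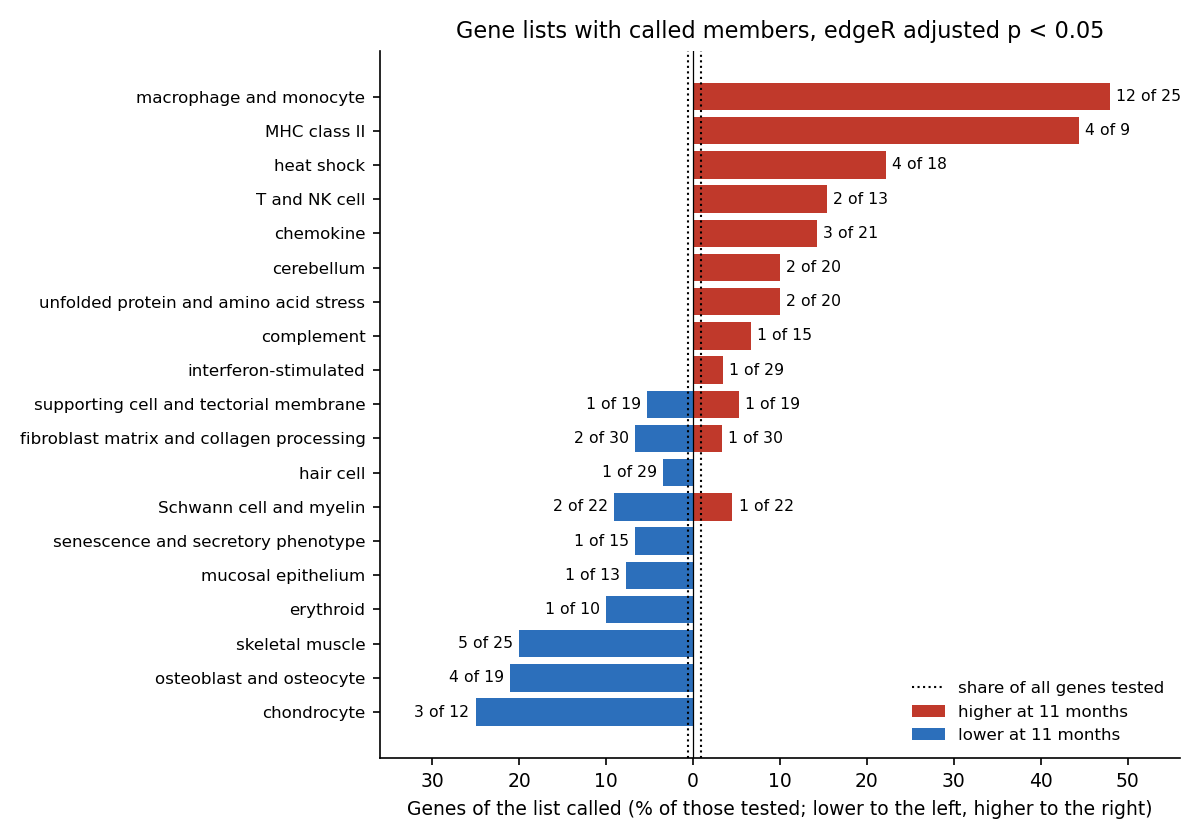
Percentage of the tested genes of each list that was called higher (red, to the right) or lower (blue, to the left) at 11 months, with the counts beside the bars and the share of all genes tested as dotted lines (0.979% higher and 0.58% lower). The macrophage list has the longest bar upwards (12 of 25) and the chondrocyte list downwards (3 of 12), and most bars stand for 1 to 5 genes.

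Several chaperone genes rose by small amounts. Of 18 heat shock genes, 4 were called higher and none lower (0.979% and 0.58% of all genes), and the median log2 fold change was 0.26. No overlap between the ages, with the 11-month libraries higher, was seen in 12 of them (7.22% of all genes). Hspa5 encodes BiP, the main chaperone of the endoplasmic reticulum. It stood at 559, 539, 498 and 528 CPM at 3 months and at 777, 729.6, 731 and 749.7 CPM at 11 months (log2 fold change 0.49, SE 0.06, adjusted p = 0.00383 by edgeR). The lowest 11-month library was well above the highest 3-month library, the spread within each age was small, and the call was kept whichever library was left out. Hsp90aa1, a cytosolic chaperone of signalling proteins, stood at 1241, 993, 1049 and 1045 CPM and then at 1484, 1344, 1395 and 1390.2 CPM (log2 fold change 0.37, SE 0.08, adjusted p = 0.041 by edgeR). Hsph1, which resets Hsp70 chaperones, stood at 226, 205, 205 and 186 CPM and then at 301, 279.6, 267 and 283 CPM (log2 fold change 0.46, SE 0.09, adjusted p = 0.0283 by edgeR). Bag3, a partner of Hsp70 in autophagy, stood at 81.9, 82.7, 107 and 82.9 CPM and then at 119, 117, 125 and 122 CPM (log2 fold change 0.44, SE 0.09, adjusted p = 0.0279 by edgeR). Replicate 3 of 3 months was the closest to the 11-month range for Bag3 and replicate 1 for Hsp90aa1 and Hsph1.

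Some called genes outside the lists also act on protein folding or turnover. Manf, a secreted factor of the endoplasmic reticulum stress response that was picked after its values were seen, went from 75.9 ± 4.38 to 101 ± 2.94 CPM (log2 fold change 0.40, SE 0.08, adjusted p = 0.0249 by edgeR). St13, a cochaperone that links Hsp70 and Hsp90, went from 187 ± 7.16 to 226 ± 5.85 CPM (log2 fold change 0.27, SE 0.05, adjusted p = 0.0227 by edgeR). Ubqln2, which brings ubiquitinated proteins to the proteasome, went from 135 ± 6.07 to 165 ± 2.97 CPM (log2 fold change 0.29, SE 0.06, adjusted p = 0.0331 by edgeR). The stress-induced Hsp70 genes Hspa1a and Hspa1b, named after their values were seen, stood at 9.69 ± 0.518 and 9.6 ± 1.42 CPM at 3 months, 16.8 ± 0.663 and 19.2 ± 2.41 CPM at 11 months, and 62.2 ± 24.2 and 108 ± 44.9 CPM at 20 months. Their difference between 11 and 3 months missed the threshold (adjusted p = 0.0659 and 0.079 by edgeR) and that between 20 and 11 months passed (adjusted p = 0.00303 for both). These 2 genes are near-identical copies whose reads the counting could split. Hspa5 stood lower in mean at 20 than at 11 months, at 662 ± 34.4 CPM (log2 fold change -0.17, adjusted p = 0.0681 by edgeR), and Ubqln2 fell back to 135 ± 9.94 CPM (log2 fold change -0.29, adjusted p = 0.0109). Counts of called heat shock genes were 4, 1, 3 and 1 without replicates 1 to 4 of 3 months and 1 without each library of 11 months. The calls of Hsp90aa1, Hsph1, Bag3, Manf, St13 and Ubqln2 were lost in 5 to 7 of those fits (adjusted p up to 0.103).

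In the list of the unfolded protein and amino acid stress response, 2 of 20 genes were called higher and none lower, Hspa5 and Sdf2l1. Sdf2l1, a cofactor of BiP, stood at 24.7, 29.2, 20.2 and 23.2 CPM and then at 33.6, 32.9, 33.7 and 34.7 CPM (log2 fold change 0.47, SE 0.11, adjusted p = 0.0483 by edgeR), a call lost without any library except replicate 2 of 3 months (adjusted p up to 0.113). Pdia4, a disulfide isomerase of the same compartment, went from 101 ± 4.09 to 126 ± 11.6 CPM and missed the threshold (adjusted p = 0.0519 by edgeR). The transcription factor genes Atf4 and Ddit3 of the stress response had log2 fold changes of -0.15 and 0.01 (adjusted p = 0.174 and 0.965 by edgeR). The promoter of Hspa5 is shown because it is the textbook carrier of the endoplasmic reticulum stress element and the gene had the smallest SE of the called chaperones of the lists. It is from RefSeq (GRCm38.p6, chr2:34771840-34772089, plus strand), 5′ to 3′, with the element (CCAAT and CCACG with 9 bases of any kind between them) in capitals, 65 to 47 bases before the start.
Hspa5: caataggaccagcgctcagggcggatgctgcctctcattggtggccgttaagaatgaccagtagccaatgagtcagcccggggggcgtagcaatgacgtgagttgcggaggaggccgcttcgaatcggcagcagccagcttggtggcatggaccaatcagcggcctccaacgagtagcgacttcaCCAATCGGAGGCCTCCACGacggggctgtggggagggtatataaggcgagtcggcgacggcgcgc
On either strand, this element was found in 37 of 32851 RefSeq promoters of this length (0.113%). A promoter was found for 19 of the 20 genes of the list, and 4 held the element (Hspa5, Hsp90b1, Calr and Pdia6). Of these, Hspa5 was called. Hsp90b1, Calr and Pdia6 had log2 fold changes of 0.27, 0.21 and 0.21 and edgeR adjusted p of 0.0862, 0.133 and 0.198.

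**Figure D5:**
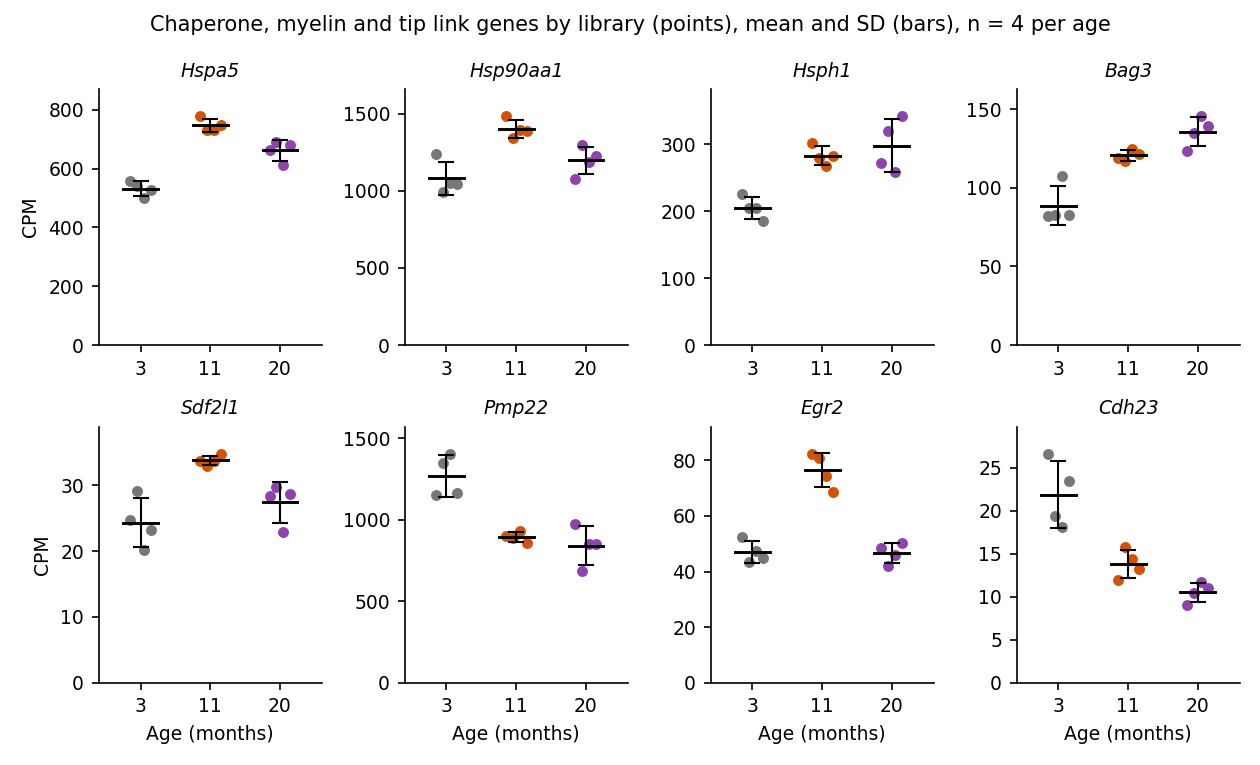
CPM of 4 chaperone genes (top), the BiP cofactor gene Sdf2l1, 2 genes of the Schwann cell and myelin list and Cdh23 (bottom) at 3, 11 and 20 months, with 1 point per library, bars for the mean and SD of n = 4, and axes from 0. The 4 chaperones and Sdf2l1 are higher at 11 than at 3 months in every library, Pmp22 and Cdh23 are lower, and Egr2 is high at 11 months (68.7 to 82.2 CPM) and back at 42.2 to 50.3 CPM at 20 months.

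In the list of Schwann cells and myelin, the structural gene Pmp22 fell and the regulator gene Egr2 rose. Of 22 genes of the Schwann cell and myelin list, 2 were called lower and 1 higher, with a median log2 fold change of -0.13, and 8 had no overlap with the 11-month libraries lower (5.75% of all genes). Pmp22, a tetraspan protein of the myelin sheath of peripheral nerve, stood at 1151, 1349, 1402 and 1163 CPM at 3 months and at 901, 888, 929 and 855 CPM at 11 months (log2 fold change -0.50, SE 0.10, adjusted p = 0.0331 by edgeR). Every 11-month library was below every 3-month library. Egr2, the transcription factor that drives myelination, stood at 52.3, 43.3, 47.5 and 44.8 CPM and then at 82.2, 80.8, 74.5 and 68.7 CPM (log2 fold change 0.70, SE 0.08, adjusted p = 0.00281 by edgeR), so it moved in the opposite direction to Pmp22. Egr2 is also an immediate early gene in other cells. None of the 19 genes of the immediate early list was called by edgeR (3 higher at an unadjusted p under 0.05, 1 called higher by the DESeq2 Wald test). At 20 months Pmp22 stood near its 11-month level, at 842 ± 121 CPM, and Egr2 at 46.7 ± 3.51 CPM, lower than at 11 months (log2 fold change -0.71, adjusted p = 0.00303 by edgeR). Egr2 was called whichever library was left out. Pmp22 lost its call without any library except replicate 1 of 3 months (adjusted p up to 0.101). In a fit of the 8 libraries alone, 8 genes of the list were called lower (3.58% of the 15147 genes tested there were higher and 1.68% lower).

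Hair cell genes were largely not called. Of 29 tested, Cdh23 was called lower by edgeR and none higher, and the median log2 fold change was -0.18. At an unadjusted p under 0.05, 2 were higher and 4 lower (8.77% and 9.32% of all genes). The DESeq2 Wald test called 2 higher and 3 lower. The edgeR fit of the 8 libraries alone called 2 higher and 1 lower. Cdh23, the cadherin of the upper part of the tip link, stood at 26.6, 19.4, 18 and 23.4 CPM at 3 months and at 11.9, 15.7, 14.4 and 13.2 CPM at 11 months (log2 fold change -0.66, SE 0.13, adjusted p = 0.0334 by edgeR). The groups did not overlap, and the level at 20 months was 10.5 ± 1.11 CPM. The call was lost without any library except replicate 3 of 3 months (adjusted p up to 0.101). Its tip link partner Pcdh15 had a log2 fold change of 0.00 (adjusted p = 0.996 by edgeR). Myo6, a motor of the hair bundle, went from 233 ± 6.09 to 197 ± 15.1 CPM (adjusted p = 0.0931 by edgeR), and Whrn, a scaffold of the stereocilia, from 22.8 ± 3.78 to 48.3 ± 7.38 CPM (adjusted p = 0.0659), neither past the threshold. The outer hair cell gene Ocm, named after its values were seen, stood at 67, 28.2, 47.9 and 77.2 CPM and then at 28.8, 27.6, 29.8 and 35.4 CPM (log2 fold change -0.86, SE 0.29, adjusted p = 0.156 by edgeR). The 3-month libraries spread widely for Ocm, and replicate 2 lay within the 11-month range.

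In the supporting cell and tectorial membrane list, 1 of 19 genes rose and 1 fell. Slc1a3, a glutamate transporter of supporting cells and astrocytes, went from 120.4 ± 7.01 to 167 ± 9.46 CPM (log2 fold change 0.47, SE 0.10, adjusted p = 0.041 by edgeR). Col11a2, a collagen of the tectorial membrane and of cartilage, stood at 837, 1141, 874 and 852 CPM and then at 564, 607, 441 and 583 CPM (log2 fold change -0.76, SE 0.16, adjusted p = 0.0369 by edgeR). At 20 months Col11a2 stood at 832 ± 177 CPM, above 11 months (log2 fold change 0.60, adjusted p = 0.0246 by edgeR). Both calls were lost without any 1 of the 8 libraries (adjusted p up to 0.112 for each). Astrocyte and cartilage markers moved in the same directions as these 2 genes, as given with their sums, and their part was not tested.

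No gene of the stria vascularis (15 tested), of melanocytes (12), of the spiral ligament fibrocytes (10) or of peripheral neurons (29) was called by edgeR. At an unadjusted p under 0.05, 5 stria genes were lower, 0 melanocyte genes passed, 1 fibrocyte gene was higher and 4 lower, and 1 neuron gene was higher and 3 lower. At that threshold 8.77% of all genes tested were higher and 9.32% lower. The DESeq2 Wald test called 2 fibrocyte genes lower and 1 neuron gene in each direction, and 0 of the stria and melanocyte lists. Their medians of the log2 fold change were -0.61, -0.36, -0.34 and 0.06. The potassium channel subunit Kcne1 stood at 119, 167, 156 and 129 CPM and then at 64.2, 29, 18.4 and 99.7 CPM (log2 fold change -1.44, SE 0.54, adjusted p = 0.198 by edgeR), and the sodium, potassium and chloride cotransporter Slc12a2 at 1046, 1230.5, 1191 and 1078 CPM and then at 786, 514, 512 and 982 CPM (log2 fold change -0.70, SE 0.26, adjusted p = 0.183 by edgeR). In both genes replicates 2 and 3 of 11 months were lowest and replicate 4 lay close to the 3-month range. The summed melanocyte markers were also lowest in replicates 2 and 3 of 11 months and highest in replicate 4, at 733, 373, 409 and 1091 CPM for replicates 1 to 4, against 887 to 1627 CPM at 3 months. The part of the amount of lateral wall tissue in each library was not tested. Coch, which encodes cochlin, a secreted protein of the fibrocytes, stood at 5756, 7442, 6702 and 6006 CPM and then at 5406, 3912, 3297 and 3682 CPM (log2 fold change -0.67, SE 0.17, adjusted p = 0.0634 by edgeR). Pou3f4, a transcription factor of the otic mesenchyme, went from 85.6 ± 11.9 to 61.4 ± 5.29 CPM (adjusted p = 0.0545 by edgeR). Neither passed, although the groups did not overlap for either gene.

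Genes of skeletal muscle, bone and cartilage were among the largest decreases. Of the muscle list, 5 of 25 genes were called lower and none higher, with a median log2 fold change of -2.08. Acta1, the actin of skeletal muscle, stood at 4.36, 40.3, 4.99 and 16.1 CPM at 3 months and at 0.167, 0.393, 0.132 and 0.139 CPM at 11 months (log2 fold change -6.30, SE 0.95, adjusted p = 0.0165 by edgeR). Tnnt3, fast troponin T, stood at 2.95, 19.2, 2.51 and 7.88 CPM and then at 0.195, 0.182, 0.185 and 0.223 CPM (log2 fold change -5.35, SE 0.73, adjusted p = 0.00782 by edgeR). Replicates 2 and 4 of 3 months were the highest for both genes. The muscle creatine kinase Ckm, also highest in those 2 libraries, went from 6.56 ± 6.75 to 0.0983 ± 0.141 CPM (adjusted p = 0.0229 by edgeR). The myosin light chains Myl1 and Mylpf went from 7.93 ± 4.67 to 1.37 ± 0.312 CPM and from 5.07 ± 3.87 to 0.738 ± 0.262 CPM (adjusted p = 0.00823 and 0.0227). The SD at 3 months was close to or above the mean for Acta1, Ckm and Tnnt3. Bpifb1, a secreted protein of airway epithelium, was also highest in replicates 2 and 4 of 3 months, at 1.15, 6.92, 1.09 and 3.01 CPM, and fell to 0.18 ± 0.0586 CPM (log2 fold change -4.04, SE 0.74, adjusted p = 0.0227 by edgeR). The amount of neighbouring tissue in each dissection is not given in the labels, and its part in these differences was not tested.

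With both of these 3-month libraries left out, a choice made after seeing the data that leaves 2 libraries at 3 months, 3 genes were higher and 5 lower in the whole comparison. The 8 calls of the comparison that were kept there were those of Srd5a2, Kcnk12, Cxcl13, Tfrc, Basp1, Fcrlb, Acta1 and Tnnt3. With libraries left out singly, 2 to 7 muscle genes were called lower. Tnnt3 and Myl1 were called in all 8 of these fits. Among the rest, Acta1 failed in 3 fits (those lacking replicates 1, 3 and 4 of 11 months), Ckm in 4 (lacking 3-month replicate 4 and 11-month replicates 2, 3 and 4), Mylpf in 5 (lacking 3-month replicates 2 and 4 and 11-month replicates 1, 2 and 3) and Bpifb1 in 6 (lacking 3-month replicates 2 and 4 and each 11-month library), at adjusted p up to 0.0912.

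Among 19 osteoblast and osteocyte genes, 4 were called lower and none higher, with a median log2 fold change of -0.78. Bglap2 encodes an osteocalcin, the hormone-like protein of bone matrix, and stood at 8.1, 8.35, 11.6 and 22.4 CPM and then at 0.613, 0.908, 0.448 and 0.892 CPM (log2 fold change -4.14, SE 0.56, adjusted p = 0.00782 by edgeR). Its near-identical neighbour Bglap stood at 10.6, 8.62, 7.53 and 29.9 CPM and then at 0.557, 0.515, 0.343 and 0.307 CPM (log2 fold change -5.03, SE 0.95, adjusted p = 0.0335 by edgeR), and reads of the pair could be split by the counting. Replicate 4 of 3 months was highest for both. Fgf23, the phosphate-regulating hormone of osteocytes, went from 2.53 ± 1.56 to 0.41 ± 0.104 CPM (adjusted p = 0.0405 by edgeR), and Col1a2, a chain of the main bone collagen, from 445 ± 79.4 to 306 ± 31.5 CPM (adjusted p = 0.0384). No osteoclast gene was called by edgeR (9 tested), with 1 lower at an unadjusted p under 0.05 and 0 called by the DESeq2 Wald test. Bglap2 was called whichever library was left out, and Bglap, Fgf23 and Col1a2 lost their calls without any library except replicate 3 of 3 months (adjusted p up to 0.113).

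A few genes of cartilage and of fibrillar matrix also fell. Of 12 chondrocyte genes, 3 were called lower and none higher. Ucma, a secreted protein of cartilage, stood at 127, 202, 210.1 and 141 CPM and then at 92.7, 53.4, 62.4 and 65.3 CPM (log2 fold change -1.31, SE 0.25, adjusted p = 0.0334 by edgeR). The collagens Col11a1 and Col9a2 went from 70.5 ± 10.8 to 45.5 ± 2.75 CPM and from 153 ± 25.9 to 109 ± 11.9 CPM (adjusted p = 0.0483 for both by edgeR), and the libraries of Col9a2 overlapped. In the fibroblast matrix list, 2 of 30 genes fell and 1 rose. Col15a1, a collagen of basement membranes, stood at 29.5, 30.1, 31.6 and 33.2 CPM and then at 9.64, 14.6, 10.4 and 11.7 CPM (log2 fold change -1.42, SE 0.18, adjusted p = 0.00424 by edgeR). The ages were far apart with little spread within either, and the call was kept whichever library was left out. An exon of Col15a1 overlaps Gm12426. Col5a2, a fibrillar collagen, went from 40.4 ± 4.75 to 27.2 ± 1.99 CPM (adjusted p = 0.0262 by edgeR), and P4ha2, an enzyme that hydroxylates collagen, from 6.17 ± 0.464 to 11.1 ± 2.9 CPM (adjusted p = 0.0375). The chondrocyte count was 2, 0, 1 and 0 without replicates 1 to 4 of 3 months and 2, 0, 0 and 0 without those of 11 months, and the calls of Col11a1, Col9a2, Ucma, Col5a2 and P4ha2 were lost in 6 or 7 of the 8 fits (adjusted p up to 0.162).

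Some genes known from brain tissue were called higher at 11 months, and most genes of the brain lists were not called. Calb1, the calcium buffer calbindin of cerebellar Purkinje cells and of some inner ear cells, stood at 27.1, 17.1, 15.7 and 22.1 CPM at 3 months and at 173, 163, 181 and 138 CPM at 11 months (log2 fold change 3.00, SE 0.52, adjusted p = 0.0288 by edgeR). Cbln1, a synapse organiser of cerebellar granule cells, stood at 4.57, 7.07, 3.99 and 5.45 CPM and then at 17.8, 15.6, 15.7 and 14.8 CPM (log2 fold change 1.60, SE 0.25, adjusted p = 0.0132 by edgeR). These were the 2 called genes among 20 of the cerebellum list, with none lower. The median log2 fold change of that list was 0.10, and its genes ranged from -1.20 to 6.62. Rgs8, another Purkinje cell gene, stood at 0.147, 0.031, 0.0605 and 0.143 CPM and then at 9.05, 11, 12.5 and 6.83 CPM, and missed the threshold (log2 fold change 6.62, SE 1.63, adjusted p = 0.0735 by edgeR). No gene of the central neuron and synapse list (18 tested) was called by edgeR, and 1 was called higher by the DESeq2 Wald test. At an unadjusted p under 0.05, 2 of its genes were higher and 1 lower. Its median log2 fold change was -0.01, and its genes ranged from -2.83 to 2.41. Outside both lists, Slc12a5, the potassium-chloride cotransporter of central neurons, went from 2.85 ± 0.789 to 11.9 ± 2.37 CPM (adjusted p = 0.0113 by edgeR). Syt13, a synaptotagmin, went from 2.31 ± 0.257 to 10.8 ± 3.46 CPM (adjusted p = 0.0279), and Crhr1, a receptor of corticotropin-releasing hormone, from 7.52 ± 2.98 to 41.4 ± 9.34 CPM (adjusted p = 0.0383). At 20 months Calb1 stood at 209 CPM in replicate 3 and at 42.9 to 52.6 CPM in the other 3 libraries, and Rgs8 at 11.7 CPM in replicate 3 and at 0 to 0.623 CPM in the others.

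Markers of oligodendrocytes and astrocytes moved with these genes. None of 16 was called by edgeR, with 6 higher at an unadjusted p under 0.05 (8.77% of all genes) and 3 called higher by the DESeq2 Wald test. The median log2 fold change was 1.24, and 8 had no overlap with the 11-month libraries higher (7.22% of all genes). Opalin, a gene of oligodendrocytes of the brain that peripheral nerve lacks, had 1 count over the libraries of 3 months and 49 over those of 11 months, a depth-scaled ratio of 46.1 with an exact 95% counting interval of 7.89 to 1860 (adjusted p = 0.084 by edgeR). The part of brain tissue carried along in the dissection was not tested. The calls of Cbln1 and Slc12a5 were kept whichever library was left out, Crhr1 and Calb1 failed in all 8 fits lacking a library, and Syt13 in all but the fit lacking replicate 4 of 11 months (adjusted p up to 0.101).

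The largest called increase was that of Srd5a2, the gene of an enzyme that turns testosterone into the more potent dihydrotestosterone (chr17:74014891-74047860, mm10). It stood at 0, 0.031, 0 and 0.0573 CPM at 3 months and at 3.2, 3.18, 3.85 and 2.98 CPM at 11 months. The gene had 3 counts over the 3-month libraries and 473 over the 11-month libraries, a depth-scaled ratio of 148 with an exact 95% counting interval of 50.4 to 721, and its edgeR adjusted p, 5.48e-05, was the smallest in the comparison. At 20 months it stood at 5.32 ± 1.6 CPM, without a call against 11 months (adjusted p = 0.147 by edgeR). An exon of Srd5a2 overlaps CT025731.1, so its reads are not assigned with certainty.

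Other genes whose calls were kept whichever library was left out included signalling molecules, enzymes and channels. Kcnk12, a subunit of potassium leak channels, stood at 7.63, 8.07, 5.17 and 8.17 CPM and then at 18.5, 23.8, 19.2 and 17.6 CPM (log2 fold change 1.45, SE 0.15, adjusted p = 0.0019 by edgeR). Plat, the tissue plasminogen activator that starts the breakdown of fibrin, stood at 58.9, 57.4, 67.1 and 59.9 CPM and then at 108, 101, 103 and 95.9 CPM (log2 fold change 0.74, SE 0.08, adjusted p = 0.002 by edgeR), and at 134 ± 15.2 CPM at 20 months. Bmp6, a growth factor that also controls iron balance, went from 68.8 ± 7.49 to 120.1 ± 8 CPM (log2 fold change 0.80, SE 0.10, adjusted p = 0.00485 by edgeR), with an exon overlap with Txndc5. Ass1, the enzyme that recycles citrulline to arginine, went from 19.2 ± 1.63 to 34.3 ± 3.65 CPM (log2 fold change 0.84, SE 0.12, adjusted p = 0.00656 by edgeR). Serpina9, a serine protease inhibitor, went from 0.67 ± 0.284 to 7.05 ± 1.55 CPM (log2 fold change 3.39, SE 0.45, adjusted p = 0.00563 by edgeR), with an exon overlap with Gm28577. In all 5 genes every 11-month library was above every 3-month library. The rule that named them required this, so it adds no support.

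Tfrc, the transferrin receptor that takes up iron, was among the abundant genes that fell. It stood at 525, 382, 397 and 412 CPM at 3 months and at 210.4, 261, 250.5 and 234 CPM at 11 months (log2 fold change -0.84, SE 0.10, adjusted p = 0.00365 by edgeR), and at 194 ± 12.5 CPM at 20 months. It was the only called gene of 10 tested in the erythroid list, whose globin genes did not follow it: Hbb-bs had a log2 fold change of 0.92 (adjusted p = 0.621 by edgeR), carried by replicate 2 of 11 months at 1879.8 CPM. Sult5a1, a sulfotransferase, stood at 14.3, 18.2, 12.8 and 15.4 CPM and then at 4.87, 5.63, 6.99 and 5.16 CPM (log2 fold change -1.42, SE 0.20, adjusted p = 0.00626 by edgeR). Basp1, a membrane protein of growing axons, went from 42.8 ± 10.5 to 22.4 ± 1.41 CPM (adjusted p = 0.0116). Igf2bp2, an RNA-binding protein of fetal tissues, stood at 18.9, 19.9, 17.1 and 20.5 CPM and then at 11.1, 9.47, 11.2 and 11.7 CPM (log2 fold change -0.81, SE 0.13, adjusted p = 0.0132 by edgeR). These 4 calls were kept whichever library was left out. At 20 months Igf2bp2 stood at 15.9 ± 2.92 CPM, above 11 months (log2 fold change 0.54, adjusted p = 0.0177 by edgeR).

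Further decreases were those of Fcrlb, an Fc receptor-like gene (76.7 ± 18.4 to 39.3 ± 3.89 CPM, adjusted p = 0.0116 by edgeR), Sema3e, an axon and vessel guidance signal (252 ± 45.5 to 156 ± 18.9 CPM, adjusted p = 0.0199), Srpx2, a secreted protein of the extracellular matrix (4.56 ± 0.919 to 1.62 ± 0.513 CPM, adjusted p = 0.0221), and the potassium channel subunit Kcnk1 (338 ± 11.4 to 278 ± 9.64 CPM, adjusted p = 0.0375). Cdkn1a, the cell cycle inhibitor p21, is often read as a marker of senescence and was lower at 11 months, at 126, 144, 152 and 131 CPM and then 98.7, 94.9, 101 and 107 CPM (log2 fold change -0.46, SE 0.10, adjusted p = 0.0353 by edgeR). It was the only called gene of 15 tested in the senescence list, and at 20 months it stood at 137 ± 19.3 CPM, above 11 months (log2 fold change 0.45, adjusted p = 0.0123 by edgeR). Abundant genes that rose included Efemp1, an extracellular fibulin (158 ± 16 to 262 ± 15.4 CPM, adjusted p = 0.0334), the cytokine receptor subunit Il6st (274 ± 19 to 377 ± 27.1 CPM, adjusted p = 0.0401), the ion transport kinase Stk39 (280.0 ± 16.3 to 367 ± 8.51 CPM, adjusted p = 0.0412) and the junction protein Pkp4 (174 ± 9.37 to 236 ± 7.13 CPM, adjusted p = 0.0221). Efemp1, Il6st, Stk39 and Kcnk1 lost their calls without any 1 of the 8 libraries, Cdkn1a without any but replicate 1 of 3 months, and Fcrlb without replicate 3 of 11 months (adjusted p up to 0.119). Sema3e, Pkp4 and Srpx2 failed when 3-month replicate 4 was missing, and also when 11-month replicates 1, 3 or 4 (Sema3e), 3 or 4 (Pkp4) and 2 or 3 (Srpx2) were.

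None of 26 cell cycle, 19 circadian clock, 38 oxidative phosphorylation, 48 cytosolic ribosomal protein, 26 cholesterol and fatty acid synthesis or 24 antioxidant defence genes passed edgeR's test at an adjusted p under 0.05. At an unadjusted p under 0.05, 2 cell cycle genes were higher, 3 clock genes were higher and 3 lower, 2 oxidative phosphorylation genes and 6 of the cholesterol and fatty acid list were lower, 3 antioxidant genes were higher and 3 lower, and no ribosomal protein gene passed, where 8.77% of all genes passed upwards and 9.32% downwards. The DESeq2 Wald test called 2 antioxidant genes higher, 1 antioxidant and 1 clock gene lower, and 0 of the other 4 lists. The medians of the log2 fold change of these 6 lists lay between -0.08 and 0.03. The lists do not hold every gene of a process: outside them, Cox8b, a subunit of cytochrome c oxidase, was called lower (log2 fold change -1.13, adjusted p = 0.0375 by edgeR) and Elovl5, a fatty acid elongase, higher (0.44, adjusted p = 0.0335). Each of these 2 calls was lost in 7 of the 8 fits lacking a library (adjusted p up to 0.111 by edgeR). Skeletal muscle genes also fell (median log2 fold change of their list -2.08), and their part in the lower level of Cox8b was not tested. Rbm25 and Tnf, of which the study knocked down the first and added the product of the other in its organoids, were not called. Rbm25, an RNA-binding splicing factor, stood at 156, 151, 122 and 138 CPM and then at 121, 142, 123 and 131 CPM (log2 fold change -0.13, SE 0.08, adjusted p = 0.407 by edgeR). Tnf, the inflammatory cytokine, stood at 0.0295, 0.403, 0.0907 and 0.0287 CPM and then at 0.0278, 0.151, 0.369 and 0.195 CPM (log2 fold change 0.44, SE 0.86, adjusted p = 0.815 by edgeR). The gene had 18 counts over the 3-month libraries and 27 over the 11-month libraries. The ages overlapped for both genes, and the log2 fold change of Tnf was -0.12 in the fit lacking replicate 3 of 11 months (adjusted p = 0.974) and 1.87 in that lacking replicate 2 of 3 months.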

How the data were processed

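Gene expression was measured in bulk RNA of the inner ear by unstranded sequencing on an Illumina HiSeq instrument after TruSeq library preparation, per the labels' protocols. The authors deposited raw counts per gene and FPKM values per gene, and the build mm10 and the tools HISAT2, Trimmomatic, DESeq2 and HTSeq appear, without role or version, per the submitters' processing notes. Counts served all tests, and the deposited FPKM values served comparisons of levels between genes and 1 alternative.

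Libraries held 32438525 to 34844505 counts at 3 months, 33146538 to 38451292 at 11 months and 30599012 to 32924919 at 20 months. Genes were kept by filterByExpr (minimum count 10) and tested with edgeR 4.0.16 (R 4.3.3), with TMM scaling and the robust quasi-likelihood fit, over all 12 inner ear libraries so that the ages shared 1 estimate of spread. The contrast was 11 minus 3 months, and p-values were Benjamini-Hochberg adjusted over the 15525 genes tested. A gene was called at an adjusted p under 0.05. CPM use TMM-scaled library sizes, and SE is the fold change divided by the root of F. Counting intervals (exact, 95%) cover counting error only. The procedure was tested on simulated data. The labels do not say how replicates were separated beyond their numbers, so p-values measure the spread between these samples.

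Alternatives were DESeq2 size factors, no filter, the DESeq2 1.42.0 Wald test, limma-trend 3.58.1 on log2(FPKM + 1), the 8 libraries alone, a replicate block and each library left out. Named genes were Rbm25 and Tnf, the 12 largest changes and 12 smallest p in each direction among called genes with a mean of at least 1 CPM, no overlap and no predicted name, the 10 most abundant called genes in each direction, every called member of 38 lists, and the members with the smallest p in each list, at most 3. A part of these is printed, some results are not reported here, and the other list members and the genes marked so in the text were chosen after their values were seen. The age groups, lists and rules were chosen with earlier results of these data known. Promoters are RefSeq sequences of build GRCm38.p6. Gene positions were matched for 18321 of the 18440 genes, and 61 of the 242 called genes share exon sequence with another annotated gene, whose reads unstranded counts cannot separate.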

Additional observations from a re-analysis of the deposited data

Results flagged for a closer look

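Within the groups of 4 libraries, 23 of 306 gene levels and list sums had a highest or lowest library separated from the others by more than Dixon's 95% limit. Chance flags about 1 in 20 values.

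At 3 months, replicate 1 was low for C1qc (13.7 CPM), Pou3f4 (67.8 CPM) and the summed cytosolic ribosomal protein genes (10322 CPM), and high for Opalin (0.0295 CPM) and the summed central neuron and synapse genes (2045 CPM). Replicate 2 was high for Nkg7 (0.0931 CPM), Col11a2 (1141 CPM), Tnf (0.403 CPM) and the summed erythroid genes (1666 CPM). Replicate 3 was high for Bag3 (107 CPM) and Parp10 (12.9 CPM). Replicate 4 was high for Bglap (29.9 CPM), Col5a2 (47.5 CPM) and Srpx2 (5.93 CPM).

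At 11 months, replicate 1 was low for Oas2 (2.17 CPM) and Herc6 (8.3 CPM). Replicate 2 was high for H2-Aa (40.5 CPM), Acta1 (0.393 CPM), the summed B and plasma cell genes (13.3 CPM) and the summed erythroid genes (3961 CPM). Replicate 3 was high for Fcgr1 (5.88 CPM) and Stk39 (379 CPM), and low for H2-D1 (202 CPM).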

How the results depend on the processing

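The count of genes higher at 11 months (152) and the count of genes lower at 11 months (90) became 158 and 93 with DESeq2 size factors and 143 and 82 without the filter. The DESeq2 Wald test called 585 and 446, limma-trend on log2(FPKM + 1) 72 and 40, and the fit of the 8 libraries alone 543 and 254, with 239 of the 242 genes called there too. Leaving out 1 library gave 29 to 88 higher and 9 to 49 lower genes, with both lowest counts without replicate 3 of 11 months. Without both 3-month libraries with the most Acta1 (replicates 2 and 4, chosen after seeing the data), 3 genes were higher and 5 lower. Of the 242 calls, 32 were kept in all 14 alternative fits chosen at the outset and 78 were lost with every library left out. In these 14 fits 0 changed direction, which adds no support because the genes were picked from the same libraries. Among the other named genes, the log2 fold change of Tnf became -0.12 with 11-month replicate 3 left out and 1.87 with 3-month replicate 2 left out, which held the most Tnf of its age. The causes were not tested. The shift of the median log2 fold change between scalings was under 0.1.

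Replicate numbers do not pair the libraries by the labels, and same-numbered libraries of the 2 ages had correlations of their deviations of -0.153, 0.0652, -0.0738 and -0.0244, with 0 of 4 closest to its own number. A fit with the replicate block gave 84 genes higher at 11 months and 46 genes lower at 11 months. Depth limits the precision of genes with few counts, such as Cd8a, Nkg7, Opalin and Tnf, whose levels were under 1 CPM in these libraries.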
